A study of Mus musculus with 67 samples.

Results

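The oxidative phosphorylation genes described here are the nuclear genes whose symbols carry the subunit names of the respiratory chain and of ATP synthase. They were chosen by symbol alone: names starting with Ndufa, Ndufb, Ndufc, Ndufs, Ndufv, Uqcr, Atp5, Cox4i, Cox5, Cox6, Cox7 or Cox8, plus Sdha, Sdhb, Sdhc, Sdhd and Cyc1, without the Ndufaf assembly factors. The rule found 86 of the 24421 genes listed in each table. By name, 38 belonged to complex I, 4 to complex II, 9 to complex III, 18 to complex IV and 15 to complex V. The remaining 2, Atp5s and Atp5sl, carry the synthase's name but are not subunits of it, and they are counted only in totals. Ndufa4 is counted with complex I for its name, although it is now known as a subunit of complex IV.

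Messenger RNA of sorted mouse monocytes and their marrow precursors was sequenced in 67 libraries of 28 groups, held in 3 tables. The first table holds 25 libraries of C57BL/6 mice aged 7 weeks. From bone marrow it has monocyte and dendritic cell progenitors (MDP, 4 libraries), common monocyte progenitors (cMoP, 4), Ly6C+ monocytes (3) and Ly6C- monocytes (4). From blood it has Ly6C+ (4), Ly6Cint (3) and Ly6C- monocytes (3). Ly6C is the surface antigen that separates classical (Ly6C+) from patrolling (Ly6C-) monocytes, with Ly6Cint cells between them. The second table holds 16 libraries, 2 per group. Its MDP, cMoP and Ly6C+ marrow monocytes came from C57BL/6 mice aged 8 weeks. Its blood Ly6C+ and Ly6Cint monocytes labelled wt or ko, and its blood Ly6C- monocytes labelled wt, came from 16-week mice of mixed background. The ko label refers to Cebpb, the transcription factor named in the series title. The third table holds 26 libraries of 8-week C57BL/6 mice, 2 per group, from a transfer of marrow Ly6C+ monocytes. It has those cells before transfer, grafted cells taken back from blood or spleen 24, 36 or 48 h later, and the hosts' own Ly6C+, Ly6Cint and Ly6C- monocytes of blood and spleen at 24 h. The titles of the host samples name Gr1 in place of Ly6C, and these groups are read here as Ly6C+, Ly6Cint and Ly6C-. Cells were sorted by flow cytometry, and no deletion or treatment is shared by all groups. The labels do not say that libraries of a group came from separate animals, so p-values measure the spread between libraries, which may be technical. The promoter or cell type in which the ko acts is not given in the sources used here.

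Oxidative phosphorylation passes electrons from NADH and succinate along complexes I to IV of the inner mitochondrial membrane to oxygen. Complexes I, III and IV pump protons, and complex V, the ATP synthase, makes ATP as the protons flow back. Complex II, succinate dehydrogenase, is also an enzyme of the tricarboxylic acid (TCA) cycle. A core of subunits is encoded by mitochondrial DNA. Those transcripts are not among the genes described here, which are all encoded in the nucleus.

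Levels are given in reads per 1000000 reads (RPM). In the first and second tables this was the deposited value divided by 10, which assumes that each column was scaled to 10000000 reads. In the transfer table it was the value's share of its column. Sequencing depth on listed genes ran from 577690 to 3643327 reads per library in the 7-week table and from 942751 to 5478761 in the second table. The depth of the transfer table is unknown. Differences are log2 ratios of RPM with 1 added, with their standard errors, tested by limma across all genes passing a filter on low values. A gene was called higher or lower at a Benjamini-Hochberg adjusted p under 0.05. Of the 86 genes, 81 passed the filter in the 7-week table, 81 in the second and 80 in the transfer table. Cox7b2, Cox8b, Cox8c and Ndufa4l2, all isoform or related genes, failed it in all 3 tables. Cox7a1, the heart and muscle isoform of its subunit, failed in the 7-week table. Atp5g2, one of several genes for the same rotor ring subunit, failed in the second and in the transfer table, and Cox4i2 failed in the transfer table. A count of 0 in the 7-week table allows up to 0.580 to 3.34 RPM, depending on the library (3 reads, counting error only).

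Kit, Flt3 and Ly6c2 followed the labels in the 7-week table, whereas a list of progenitor genes did not. Kit, the receptor of stem cell factor, averaged 77.8 RPM in MDP and 71.9 RPM in cMoP and at most 3.66 RPM in the monocyte groups. Flt3, which marks MDP, averaged 258 RPM there and 9.01 RPM in cMoP. The progenitor list (4 genes) summed to 1028 to 1090 RPM in MDP, 486 to 535 RPM in cMoP and 502 to 564 RPM in marrow Ly6C+ monocytes. It was higher in Ly6C- monocytes, at 1661.5 to 1873 RPM in marrow and 1447 to 1993 RPM in blood. Ly6c2 averaged 4192 RPM in marrow Ly6C+ and 122 RPM in marrow Ly6C- monocytes, and 2709, 273 and 30.1 RPM in blood Ly6C+, Ly6Cint and Ly6C- monocytes. The lymphocyte receptor genes Cd79a and Cd3e averaged under 1 RPM in every group, but the lists they belong to did not all lie near 0. The T and NK cell list (7 genes) summed to 183 to 271 RPM in cMoP, 53.6 to 69.1 RPM in MDP and 0 to 15.8 RPM in the monocyte groups, and in the progenitors most of it was Nkg7 (218 RPM on average in cMoP). The B cell list (5 genes) summed to 20.8 to 79.1 RPM over all 7-week libraries, most of it Cd79b in the groups with the highest sums. Their part in the results was not tested.

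Because the tables contain no sequence, 4 promoters from RefSeq (GRCm38.p6) show what lies before the start of 4 genes of the group. Sdha and Atp5b are among those with the most values below. Sdhd and Cox6a1 show both motifs, and each is called in marrow Ly6C- monocytes below. The table of promoters matched 70 of the 86 genes, with 76 windows of 250 bases before to 50 after a start. The bases before the start are given 5′ to 3′ on the gene's own strand. Capitals mark matches, on either strand, to the core of the NRF1 site (GCGCA, any base, then GCGC) or to CCGGAAG, a core bound by GABPA (NRF2). Both factors are textbook regulators of nuclear genes for the respiratory chain. Sdha encodes the flavoprotein that oxidises succinate in complex II (chr13:74350241-74350490, minus strand), and its window holds 3 matches to the NRF1 core. Sdhd encodes a membrane anchor of the same complex (chr9:50603850-50604099, minus strand). Cox6a1 encodes the widely expressed isoform of complex IV subunit 6a (chr5:115348959-115349208, minus strand). Atp5b encodes the catalytic beta subunit of ATP synthase (chr10:128083057-128083306, plus strand), and its window holds neither set of letters.
Sdha: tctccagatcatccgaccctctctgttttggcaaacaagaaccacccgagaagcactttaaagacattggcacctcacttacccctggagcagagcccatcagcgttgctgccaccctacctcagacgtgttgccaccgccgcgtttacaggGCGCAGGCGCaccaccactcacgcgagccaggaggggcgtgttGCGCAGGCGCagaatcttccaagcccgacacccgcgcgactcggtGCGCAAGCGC
Sdhd: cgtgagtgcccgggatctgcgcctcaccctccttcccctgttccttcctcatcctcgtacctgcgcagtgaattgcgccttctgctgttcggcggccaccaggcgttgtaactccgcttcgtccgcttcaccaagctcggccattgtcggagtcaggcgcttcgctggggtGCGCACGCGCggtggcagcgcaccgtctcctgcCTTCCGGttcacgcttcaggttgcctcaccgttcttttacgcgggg
Cox6a1: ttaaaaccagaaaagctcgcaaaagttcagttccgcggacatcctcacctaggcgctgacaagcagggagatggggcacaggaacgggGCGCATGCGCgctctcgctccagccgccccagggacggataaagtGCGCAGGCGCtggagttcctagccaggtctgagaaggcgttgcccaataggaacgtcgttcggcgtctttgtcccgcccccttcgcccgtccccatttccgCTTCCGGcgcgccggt
Atp5b: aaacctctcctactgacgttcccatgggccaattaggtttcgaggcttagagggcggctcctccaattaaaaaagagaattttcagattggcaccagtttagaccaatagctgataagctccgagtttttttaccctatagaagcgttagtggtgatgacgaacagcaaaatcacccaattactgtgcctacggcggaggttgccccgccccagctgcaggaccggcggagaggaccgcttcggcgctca

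The NRF1 core lay in 18 of the 76 windows of the group (23.7%), in 10.4% of the windows of all genes tested in the 7-week table and in 4.60% of all promoters. The GABPA core lay in 21.1% of the group's windows, in 18.4% of those of tested genes and in 8.86% of all promoters. AAGATGG, a core of the YY1 site, lay in 17.1% against 7.35% and 6.34%, and TATAAA lay in 10.5% against 7.17% and 13.6%. All were searched on both strands. Of the group's windows, 4 held both the NRF1 and the GABPA core, 1 held the NRF1 and the YY1 core, and 1 held the GABPA and the YY1 core. In 0 of these windows did matches to different cores overlap. These are matches of letters, not measured binding.

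Across the 7-week groups, the summed share of reads from the 86 genes was highest in the progenitors and lowest in Ly6C- monocytes. It was 3.05% ± 0.0912 of the reads on listed genes in MDP (SD, n = 4) and 3.27% ± 0.123 in cMoP (n = 4). It was 2.53% ± 0.0372 in marrow Ly6C+ monocytes (n = 3) and 1.67% ± 0.0504 in marrow Ly6C- monocytes (n = 4). In blood it was 2.27% ± 0.228 in Ly6C+ (n = 4), 2.10% ± 0.114 in Ly6Cint (n = 3) and 1.69% ± 0.114 in Ly6C- monocytes (n = 3). The libraries of MDP (2.97% to 3.16%) and cMoP (3.15% to 3.41%) overlapped by their extremes, and both lay above every monocyte library. The marrow Ly6C- libraries (1.60% to 1.72%) lay below every Ly6C+ library, and overlapped the blood Ly6C- libraries (1.58% to 1.81%). Blood Ly6C+ libraries (2.08% to 2.60%) overlapped both Ly6Cint (2.00% to 2.22%) and marrow Ly6C+ (2.502% to 2.57%). The highest blood Ly6C+ library, replicate 4, also had the highest sum of erythroid markers in that group (651 RPM), and the part of those cells in its value was not tested. In bulk RNA, fewer cells of a type and less RNA per cell cannot be told apart.

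In the second table the progenitors were again highest and Ly6C- monocytes lowest. MDP libraries were at 2.81% and 2.93%, cMoP at 2.85% and 3.57%, and marrow Ly6C+ at 2.25% and 2.32%. The wt blood monocytes lay in the order Ly6C+ (1.87% and 1.98%), Ly6Cint (1.67% and 1.73%) and Ly6C- (1.41% and 1.47%), without overlap. The ko blood monocytes were at 1.78% and 1.98% for Ly6C+ and 1.68% and 1.71% for Ly6Cint, overlapping the wt libraries. In the transfer table the marrow Ly6C+ cells before transfer had the highest share, 2.27% and 2.29%, and the hosts' blood Ly6C- cells the lowest, 1.22% and 1.25%. The grafts in blood were at 1.73% and 1.77% at 24 h, 1.55% and 1.57% at 36 h, and 1.49% and 1.54% at 48 h. The spleen grafts were at 1.65% and 1.93%, 1.65% and 1.72%, and 1.52% and 1.80% at the same times.

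**Figure D1:**
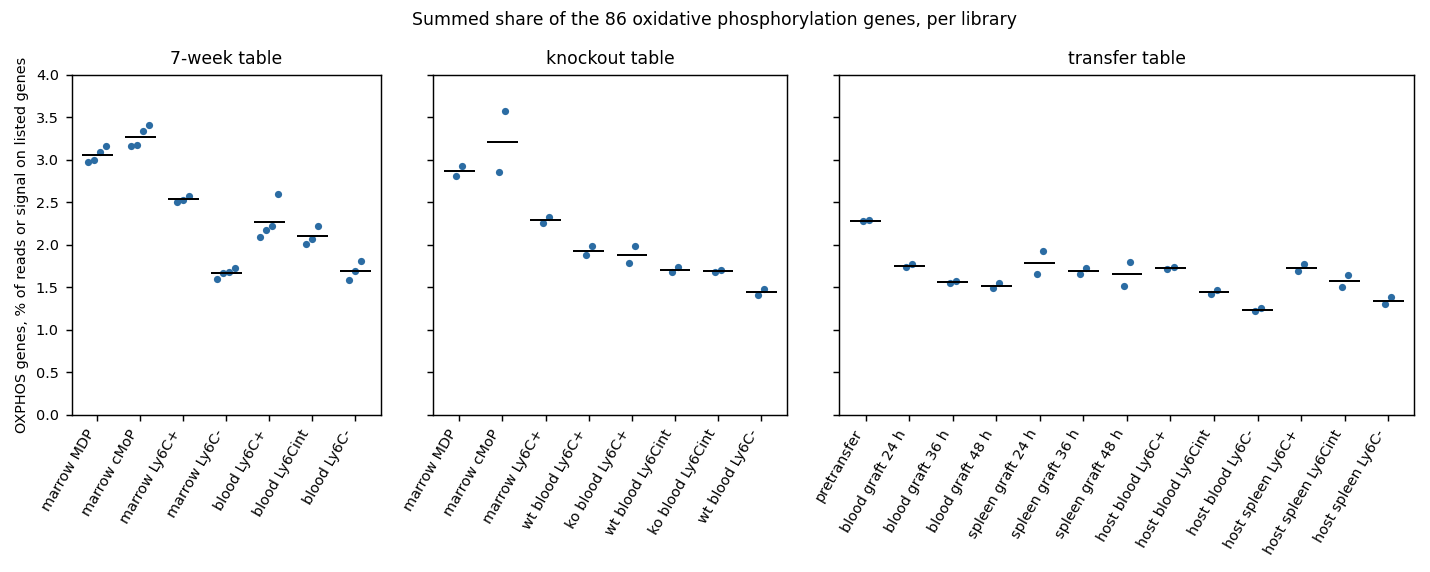
Share of reads on listed genes that came from the 86 oxidative phosphorylation genes, in percent, by library (points) and group mean (lines), for the 3 tables. MDP and cMoP libraries lie highest, Ly6C- libraries lowest, and the 2 libraries before transfer lie above all grafts. In the second table the marrow and blood groups also differ in age and background.

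Gene by gene, 52 of the 81 tested genes had their highest 7-week mean in cMoP, 12 in MDP, 8 in blood Ly6C+, 6 in marrow Ly6C+ and 3 in Ly6Cint monocytes. For 45 the lowest mean was in marrow Ly6C- and for 19 in blood Ly6C- monocytes. Of the 81, 53 were highest in a progenitor and lowest in a Ly6C- group. This count was not made over all genes tested, which also leaned this way. From cMoP to marrow Ly6C+ monocytes 22.4% of all genes were lower and 15.3% higher. In marrow Ly6C- against Ly6C+ monocytes it was 29.1% and 11%. Among the 81 genes, the ratio of the highest to the lowest group mean had a median of 2.41. By complex this median was 2.27 for complex I, 3.05 for II, 2.95 for III, 1.97 for IV and 2.78 for V. The make-up of the summed reads differed between the groups. On average, complex V genes held 33.1% of the group's reads in MDP, 34.0% in cMoP, 30.5% in marrow Ly6C+ and 24.95% in marrow Ly6C- monocytes. Complex IV genes held 19.0%, 18.1%, 21.3% and 24.0% in the same order.

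**Figure D2:**
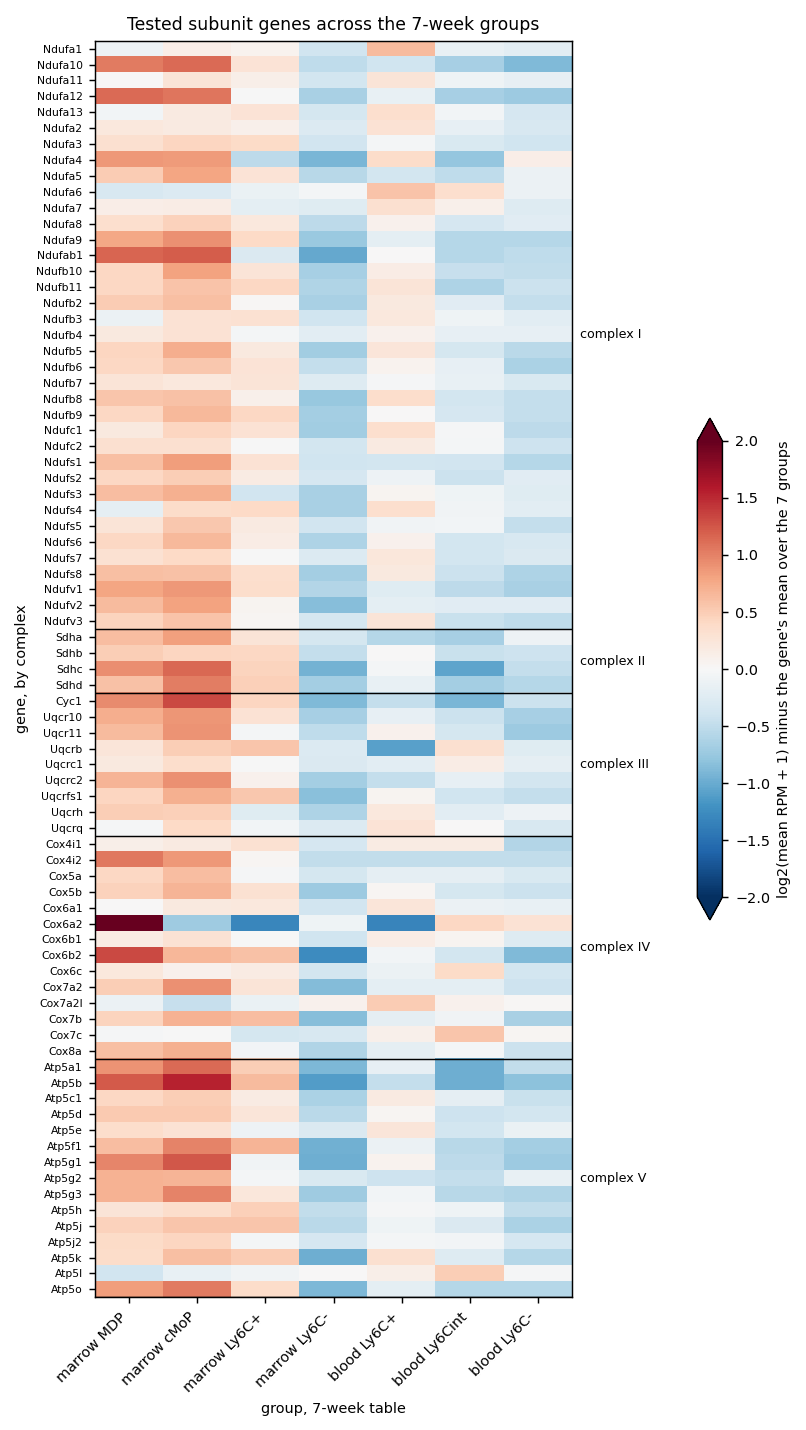
Level of each tested subunit gene in the 7-week groups, as the log2 of the mean RPM with 1 added, minus the gene's own mean over the 7 groups; rows are ordered by complex, and the colour scale stops at 2 in either direction, which Cox6a2 in MDP exceeds. Most rows are highest in cMoP or MDP and lowest in a Ly6C- column.

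Between the progenitors, cMoP against MDP, only Cox6a2 passed the test. Cox6a2, the heart and muscle isoform of complex IV subunit 6a, was at 23.4, 23.7, 27.6 and 35.1 RPM in MDP and at 0.290, 1.01, 1.65 and 3.64 RPM in cMoP. The groups did not overlap, and no other 7-week library was above 11.1 RPM. The difference was -3.56 ± 0.63 (limma adjusted p = 0.000149). The call of 1 of 81 genes stands beside 9.25% of all genes tested, 4.05% lower and 5.2% higher. The median log2 ratio was 0.13 for the group and -0.01 for all genes. 65 of the 81 genes lay above 0. Groups did not overlap for 11 genes with cMoP higher and 2 with cMoP lower, and among all genes tested they did not overlap for 13.5% and 11.8%. A fit of these 2 groups alone called 11 genes (9 higher, 2 lower), and the fit without cMoP replicate 4 called 2. Plasmacytoid dendritic cell markers summed to 247 to 354 RPM in MDP and 110 to 178 RPM in cMoP. Neutrophil markers summed to 1226 to 1477 RPM in MDP and 3699 to 4542 RPM in cMoP. The part of these cells in the differences was not tested.

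In the 8-week libraries of the same progenitors Cox6a2 was at 11.98 and 29.7 RPM in MDP and 1.25 and 2.63 RPM in cMoP. No other gene of the group was called, where 4.85% of all genes were called, 3.02% lower and 1.83% higher. Cox6a2 (-2.81 ± 0.40) passed the filter on low values only through MDP, with 1 library of any other group at 2 RPM or more. Its call (limma adjusted p = 0.000789) is therefore a description here and no independent repeat. It was listed at 0 in both 8-week Ly6C+ libraries. Neutrophil markers summed to 6581 to 6850 RPM in 8-week MDP and 10521 to 11952 RPM in 8-week cMoP, and their part was not tested. A fit of the 2 groups alone called 0 of the 81, and the fit without cMoP replicate 2 called 3.

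From cMoP to marrow Ly6C+ monocytes, 34 of 81 genes fell and 0 rose in the 7-week libraries. That is 42.0% of the group, where 22.4% of all genes tested fell and 37.7% were called in either direction. The median log2 ratio was -0.37 for the group and -0.17 for all genes. Lower calls took in 14 of 37 complex I genes, 3 of 4 of complex II, 6 of 9 of complex III, 4 of 14 of complex IV and 6 of 15 of complex V. For 49 genes every Ly6C+ library lay below every cMoP library, as it did for 33.4% of all genes tested. edgeR on the recovered reads called 20 lower and 1 higher, and 18 of the 34 genes stayed past the threshold in every alternative run. Neutrophil markers summed to 3699 to 4542 RPM in cMoP and 645 to 977 RPM in marrow Ly6C+ cells, mostly from Mpo and Elane, granule genes that myeloid precursors also express. Their part in the result was not tested.

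In complex I, Ndufa12, an accessory subunit, was at 102, 104, 105 and 110 RPM in cMoP and 37.7, 51.1 and 58.7 RPM in Ly6C+ monocytes (-1.10 ± 0.20, limma adjusted p = 7.1e-05). Of its 36-base words 57.6% also occur in other listed transcripts, so reads may have been shared with copies. In complex II, Sdhc, a membrane anchor, was at 331, 394, 426 and 428 RPM in cMoP and 233, 241 and 248 RPM in Ly6C+ monocytes. The groups did not overlap (-0.71 ± 0.17, limma adjusted p = 0.00173). Sdhb, the iron-sulphur subunit of the same complex, was at 282 to 374 RPM and 308 to 368 RPM, which overlapped (0.00).

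Among complex III genes, Uqcr11, a small accessory subunit, was at 344, 376, 386 and 390 RPM in cMoP and 187, 195 and 203 RPM in Ly6C+ monocytes (-0.93 ± 0.15, limma adjusted p = 1.5e-05). Cyc1, cytochrome c1, was at 412, 445, 454 and 524 RPM and at 216, 218 and 304 RPM (-0.91 ± 0.27, limma adjusted p = 0.00905). Neither gene's groups overlapped. Cox8a, a small subunit of complex IV, was at 400, 546, 557 and 559 RPM in cMoP and 296, 296 and 314 RPM in Ly6C+ monocytes (-0.76 ± 0.16, limma adjusted p = 0.000278). Cox4i1, the widely expressed isoform of subunit 4, overlapped between the groups, at 976 to 1156 RPM and 1137 to 1260 RPM (0.12). In complex V, Atp5b was at 1632, 1754, 1863 and 1906 RPM in cMoP and 850, 985 and 1042 RPM in Ly6C+ monocytes. Every Ly6C+ library lay below the lowest cMoP library by a wide margin (-0.90 ± 0.15, limma adjusted p = 1.55e-05).

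The 8-week libraries gave 27 of 81 lower and 0 higher, against 20.5% of all genes lower and 36.8% called. The medians were -0.46 and -0.10. This count moved with single libraries: it was 8 without cMoP replicate 1, 14 without Ly6C+ replicate 2 and 40 without cMoP replicate 2, and a fit of these 2 groups alone called 2. Atp5j, coupling factor 6 of ATP synthase, was at 127 and 187 RPM in cMoP and 61.4 and 69.1 RPM in Ly6C+ monocytes (-1.23 ± 0.21, limma adjusted p = 0.00041). Sdha was at 203 and 222 RPM against 119 and 137 RPM (-0.73 ± 0.18, limma adjusted p = 0.00524). Neither gene's groups overlapped. Neutrophil markers were also lower in these Ly6C+ libraries, with 8 of 9 called. They summed to 680 to 708 RPM in Ly6C+ and 10521 to 11952 RPM in cMoP libraries. Erythroid markers summed to 3399 to 4602 RPM in Ly6C+ and 271 to 516 RPM in cMoP libraries, and T and NK cell markers to 3.33 to 7.98 RPM and 78.1 to 105 RPM. The part of these cells in the result was not tested.

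Counts in other lists of mitochondrial and metabolic genes stand beside 22.4% of all genes lower and 15.3% higher in this step. In the 7-week libraries, 8 of 13 TCA cycle genes fell and 0 rose, with a median of -0.73. Of 77 genes for mitochondrial ribosomal proteins 48 fell and 1 rose, of 40 assembly factors 19 fell and 0 rose, and of 17 mitochondrial carriers 12 fell and 1 rose. Of 23 glycolysis genes 8 fell and 1 rose, with a median of -0.40. Of 16 regulators of mitochondrial biogenesis 5 fell and 0 rose, among them Myc, a growth factor-induced transcription factor (-3.54), and Tfam, which packages mitochondrial DNA (-0.80). Of 79 genes for cytosolic ribosomal proteins, 51 fell and 0 rose.

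Marrow Ly6C- against marrow Ly6C+ monocytes gave the most calls of the comparisons made. Of 81 genes, 52 were lower in Ly6C- cells and 0 higher, which is 64.2% of the group. Among all genes tested, 29.1% were lower and 40.1% called. The median log2 ratio was -0.72 for the group and -0.28 for all genes. Lower calls took in 25 of 37 complex I genes, all 4 of complex II, 5 of 9 of complex III, 7 of 14 of complex IV and 11 of 15 of complex V. The median of complex V was -0.96, that of complex II -1.03 and that of complex IV -0.56.

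Atp5b was at 850, 985 and 1042 RPM in marrow Ly6C+ and 262, 275, 292 and 302 RPM in marrow Ly6C- monocytes (-1.76 ± 0.15, limma adjusted p = 9.96e-11). Atp5a1, the alpha subunit that sits beside beta in the same ring, was at 486, 506 and 608 RPM and at 150, 207, 208 and 243 RPM (-1.41 ± 0.17, limma adjusted p = 9.04e-08). The Ly6C- libraries lay below all Ly6C+ libraries for both. In complex II, Sdhc was at 233, 241 and 248 RPM in Ly6C+ and 73.2, 90.2, 100.1 and 103 RPM in Ly6C- cells (-1.40 ± 0.17, limma adjusted p = 1.52e-07). Sdha was at 123, 155 and 157 RPM and at 86.9, 91.2, 99.0 and 99.0 RPM, again without overlap. Sdhd, the other membrane anchor, was at 226, 236 and 239 RPM and at 83.7, 101, 114 and 118 RPM, also without overlap (-1.17 ± 0.20, limma adjusted p = 3.02e-05).

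Uqcrfs1, the Rieske iron-sulphur protein of complex III, was at 384, 401 and 419 RPM in marrow Ly6C+ and 140, 141, 152 and 181 RPM in marrow Ly6C- monocytes (-1.39 ± 0.18, limma adjusted p = 3.72e-07). Cyc1 was at 216, 218 and 304 RPM and at 87.8, 93.4, 106 and 108 RPM (-1.29 ± 0.27, limma adjusted p = 0.000323). Both groups of libraries stood apart for each gene. In complex I, Ndufv1, which binds NADH, was at 122, 135 and 139 RPM and at 52.3, 65.0, 68.7 and 85.6 RPM (-0.97 ± 0.17, limma adjusted p = 2.58e-05). Ndufs8, an iron-sulphur core subunit, was at 215, 230 and 238 RPM and at 85.6, 104, 116 and 143 RPM (-1.04 ± 0.16, limma adjusted p = 6.82e-06). Neither core subunit overlapped between the groups.

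In complex IV, Cox7b was at 254, 308 and 313 RPM in Ly6C+ and 84.5, 97.4, 101 and 139 RPM in Ly6C- cells (-1.48 ± 0.20, limma adjusted p = 6.4e-07). Cox4i1 was also lower, at 1137, 1153 and 1260 RPM and at 599, 773, 800 and 850 RPM (-0.66 ± 0.16, limma adjusted p = 0.00161). The groups did not overlap for either gene. Cox6a1 was at 781, 808 and 828 RPM in Ly6C+ and 486, 487, 488 and 667 RPM in Ly6C- cells (-0.61 ± 0.14, limma adjusted p = 0.00101). Cox6b2, known as the testis isoform of subunit 6b, was at 15.8, 21.7 and 22.4 RPM in Ly6C+ and 1.96, 3.48, 5.27 and 8.90 RPM in Ly6C- monocytes (-1.95 ± 0.38, limma adjusted p = 0.000124). Not every gene was called. Ndufa6, an accessory subunit of complex I, was at 267, 313 and 337 RPM against 311, 313, 340 and 348 RPM (0.11), and Cox7a2l, a factor in supercomplex formation, differed by 0.23.

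The share of reads on listed genes was lower in the marrow Ly6C- libraries (60.2% to 64.3%) than in the Ly6C+ libraries (70.0% to 70.8%), so the scaling bears on this comparison. Scaled to the listed genes, 44 were lower and 0 higher, and the medians were -0.60 for the group and -0.14 for all genes. With quantile scaling 39 were lower and 1 higher (-0.47 and 0.02), and edgeR called 34 lower and 1 higher (-0.47 and 0.00). Relative to the median of all genes the group lay at -0.44 as first scaled, -0.46 scaled to listed genes, -0.49 with quantile scaling and -0.47 in edgeR. 34 of the 52 genes stayed past the threshold in every alternative run. Erythroid markers summed to 717 to 1850 RPM in the Ly6C- and 3.09 to 180 RPM in the Ly6C+ libraries, and neutrophil markers to 26.4 to 683 RPM and 645 to 977 RPM. The part of these cells in the result was not tested.

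**Figure D3:**
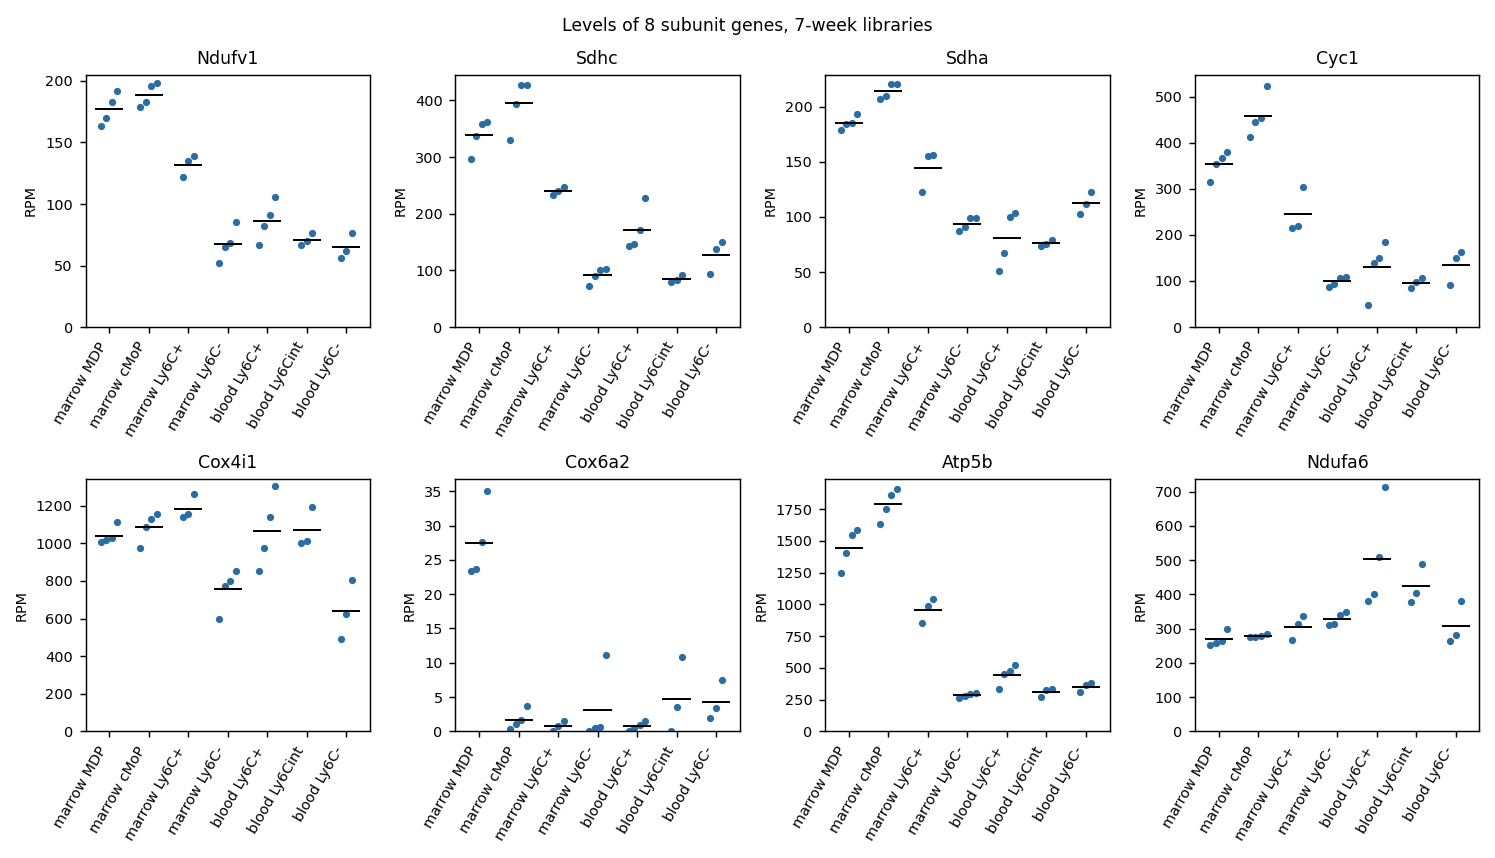
RPM of 8 subunit genes in every library of the 7-week groups (points), with group means as lines and a linear axis from 0 for each gene. Atp5b is at 1632 RPM or more in every cMoP library and at 262 to 302 RPM in the marrow Ly6C- libraries, while Ndufa6 in the same marrow Ly6C- libraries lies within or just above the marrow Ly6C+ range.

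Other lists in marrow Ly6C- cells stand beside 29.1% of all genes lower and 11% higher. Of 13 TCA cycle genes 10 fell and 0 rose, with Fh1, fumarase, at -1.79 and Idh3a, a subunit of isocitrate dehydrogenase, at -1.67. Of 17 carriers and channels 12 fell and 1 rose. Slc25a4, an ADP/ATP carrier, fell by 2.61 and Vdac1, the outer membrane channel, by 2.07, while Ucp2, an uncoupling protein, rose by 1.11 on the log2 scale. Of 77 mitochondrial ribosomal protein genes 48 fell and 0 rose, and of 79 cytosolic ones 10 fell and 10 rose. Of 23 glycolysis genes, 13 fell and 4 rose.

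In blood, 26 of 81 genes were lower in Ly6C- than in Ly6C+ monocytes and 1 higher in the 7-week libraries. Of all genes tested, 10.5% were lower, 9.86% higher and 20.3% called. The medians were -0.42 for the group and 0.00 for all genes. Lower calls took in 15 of 37 complex I genes, 1 of 4 of complex II, 3 of 9 of complex III, 1 of 14 of complex IV and 6 of 15 of complex V. The other scalings and edgeR called 23 to 25 of the group. A fit of these 2 groups alone called only 4, with the same medians. Plasmacytoid dendritic cell markers summed to 133 to 192 RPM in Ly6C- and 337 to 564 RPM in Ly6C+ libraries, and neutrophil markers to 16.7 to 34.7 RPM and 73.5 to 187 RPM. The part of these cells in the result was not tested. In the other lists, 12 of 77 mitochondrial ribosomal protein genes and 5 of 17 carriers fell and 0 rose, Slc25a4 by 2.01 on the log2 scale. Of 13 TCA cycle genes 0 fell and 1 rose, and of 23 glycolysis genes 5 fell and 4 rose.

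Ndufa13, a complex I subunit also known as GRIM-19, was at 434, 444, 470 and 494 RPM in blood Ly6C+ and 266, 291 and 305 RPM in blood Ly6C- monocytes (-0.68 ± 0.13, limma adjusted p = 0.000258), with 31.7% of its words shared. Ndufs8 was at 156, 214, 216 and 246 RPM and at 115, 115 and 124 RPM (-0.79 ± 0.16, limma adjusted p = 0.000643). Uqcr11 was at 160, 171, 224 and 290 RPM and at 117, 118 and 127 RPM (-0.76 ± 0.15, limma adjusted p = 0.00046). None of these 3 overlapped between the groups. Cox4i1 was at 851, 977, 1138 and 1302 RPM in Ly6C+ and 490, 622 and 806 RPM in Ly6C- cells (-0.75 ± 0.16, limma adjusted p = 0.00103). Sdha, in contrast, was called higher in Ly6C- cells, although the libraries overlapped: 50.7, 67.6, 100.4 and 104 RPM against 102, 111 and 123 RPM (0.53 ± 0.18, limma adjusted p = 0.0316). Sdhb, its partner, was called lower (-0.42 ± 0.13, limma adjusted p = 0.0232).

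The step to Ly6Cint and the step on to Ly6C- were less settled. Ly6Cint against Ly6C+ blood monocytes gave 17 lower and 1 higher of 81, against 19.2% of all genes lower, 7.95% higher and 27.2% called. The medians were -0.31 and -0.21. This split depended on the scaling: scaled to listed genes it was 7 lower and 6 higher, with quantile scaling 3 and 6, and in edgeR 5 and 3. A fit of these 2 groups alone called 3. The share of reads on listed genes was 59.8% to 60.4% in Ly6Cint and 66.9% to 73.2% in Ly6C+ libraries. Sdhc was at 143, 146, 172 and 228 RPM in Ly6C+ and 78.9, 82.8 and 91.8 RPM in Ly6Cint monocytes (-0.99 ± 0.17, limma adjusted p = 0.000125). Its groups did not overlap, and with Atp5a1 it was 1 of 2 genes that stayed past the threshold in every alternative. Uqcrb, a complex III subunit with copies elsewhere (54.0% of its words shared), was the 1 gene called higher, from 6.16, 14.6, 24.6 and 65.3 RPM to 66.1, 69.3 and 90.0 RPM (1.85 ± 0.47, limma adjusted p = 0.00484).

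Ly6C- against Ly6Cint gave 1 lower and 0 higher, against 1.62% of all genes lower, 7.25% higher and 8.87% called. That gene was Cox4i1, at 1000, 1010 and 1194 RPM in Ly6Cint and 490, 622 and 806 RPM in Ly6C- cells, without overlap (-0.76 ± 0.17, limma adjusted p = 0.0075). The medians were -0.14 for the group and 0.20 for all genes. The count was 6 scaled to listed genes, 2 with quantile scaling, and 0 in a fit of these 2 groups alone. It was 7 without Ly6C- replicate 1, 2 without Ly6Cint replicate 2 and 0 without Ly6C- replicate 3.

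Ly6C+ monocytes of blood and marrow differed in 24 of 81 genes, 21 lower and 3 higher in blood, against 18.7% of all genes lower, 7.32% higher and 26% called. The medians, -0.18 and -0.19, lay side by side. All 4 complex II genes and 5 of 9 complex III genes were lower, 6 of 37 of complex I and 5 of 15 of complex V. Atp5b was at 850, 985 and 1042 RPM in marrow and 330, 454, 476 and 519 RPM in blood, without overlap (-1.12 ± 0.15, limma adjusted p = 8.59e-07). Sdha was at 123, 155 and 157 RPM in marrow and 50.7, 67.6, 100.4 and 104 RPM in blood (-0.89 ± 0.18, limma adjusted p = 0.000321). The higher genes were Ndufa6, Ndufa7 and Cox7a2l. Ndufa6 was at 267, 313 and 337 RPM in marrow and 381, 403, 511 and 715 RPM in blood (0.67 ± 0.17, limma adjusted p = 0.00366). Cox7a2l was at 108, 123 and 165 RPM and at 183, 198, 204 and 235 RPM (0.65 ± 0.18, limma adjusted p = 0.00849). In edgeR the split was 8 lower and 6 higher, and a fit of these 2 groups alone called 4, all lower. Neutrophil markers summed to 73.5 to 187 RPM in blood and 645 to 977 RPM in marrow, and plasmacytoid dendritic cell markers to 337 to 564 RPM and 162 to 192 RPM. The part of these cells in the result was not tested.

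The Ly6C- against Ly6C+ ratio was also compared between marrow and blood, in a test added after the data were seen. It called 15 of 81 genes (18.5%) with a lower and 2 with a higher ratio in marrow. Among all genes tested 14.3% were lower, 3.53% higher and 17.8% called, and the medians were -0.33 and -0.28. The group's shares lay near those of all genes, and the values of single genes follow. Atp5b, at -1.76 in marrow, was at 330 to 519 RPM in blood Ly6C+ and 308 to 378 RPM in blood Ly6C- cells, which overlapped. Its difference between the tissues was -1.43 ± 0.21 (limma adjusted p = 1.61e-05). For Sdha, lower in marrow Ly6C- and higher in blood Ly6C- cells, it was -1.14 ± 0.25 (limma adjusted p = 0.0017). For Cyc1 it was -1.46 ± 0.38 (limma adjusted p = 0.00823). Cyc1 was at 47.7 (replicate 4), 140, 150 and 184 RPM in blood Ly6C+ cells. In blood Ly6C- cells it was at 90.3, 150 and 164 RPM, which overlapped, so its blood ratio leaned on replicate 4. Ndufa6 (0.78 ± 0.24, limma adjusted p = 0.0233) and Cox7a2l (0.73 ± 0.26, limma adjusted p = 0.048) went the other way. The split was 6 lower and 3 higher in edgeR, 9 and 3 scaled to listed genes and 10 and 3 with quantile scaling. The count was 11 without marrow Ly6C+ replicate 3, and Atp5a1, Atp5b, Atp5f1, Sdha and Sdhc stayed past the threshold in every alternative run.

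**Figure D4:**
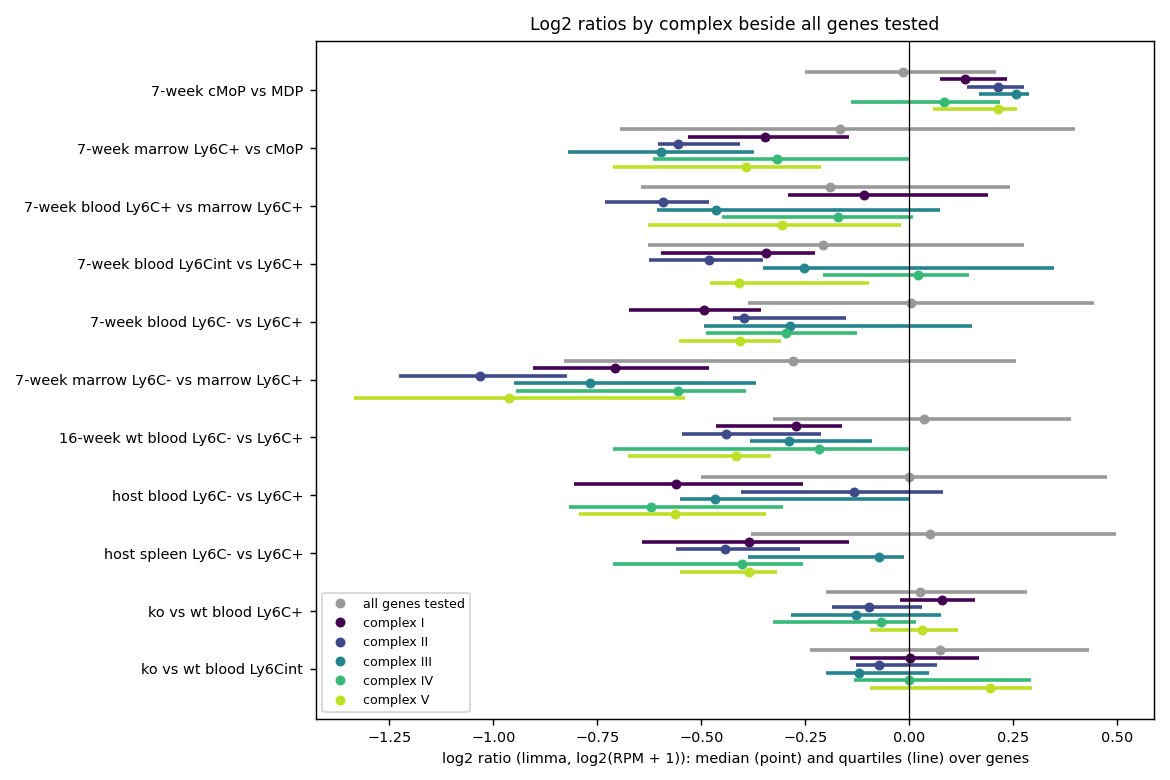
Log2 ratios of the tested genes of each complex, and of all genes tested, for 11 comparisons of the 3 tables, with the median over genes as a point and the quartiles as a line. In marrow Ly6C- against Ly6C+ the complexes lie between -0.56 and -1.03 and all genes at -0.28, and in ko against wt the complexes lie between -0.13 and 0.19.

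The ko label was checked on Cebpb first. It was at 693 and 804 RPM in wt and 57.2 and 115 RPM in ko Ly6C+ monocytes (limma adjusted p = 0.000551). In Ly6Cint monocytes it was at 1242 and 1734 RPM in wt and 67.1 and 186 RPM in ko (limma adjusted p = 4.8e-05). All ko libraries lay below all wt libraries. The deleted part of the gene is not given in the sources used here.

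In blood Ly6C+ monocytes 0 of 81 genes of the group were called between ko and wt, where limma called 1.26% of all genes, 0.799% higher and 0.465% lower. 0 genes had an unadjusted p under 0.05, edgeR called 0, and the medians were 0.02 for the group and for all genes. Atp5b was at 470 and 478 RPM in wt and 453 and 522 RPM in ko, and Cox4i1 at 773 and 779 RPM and at 692 and 721 RPM. In Ly6Cint monocytes 1 of 81 was called, where 3.63% of all genes were higher, 2.7% lower and 6.33% called. This was Cox6b2, at 6.73 and 9.08 RPM in wt and 17.1 and 25.8 RPM in ko (1.32 ± 0.35, limma adjusted p = 0.0331). The ko values lay above the wt Ly6C+ values of 12.2 and 13.7 RPM as well. The call depended on single libraries: the count was 0 without either ko library or without wt replicate 1, 2 without wt replicate 2, 0 with quantile scaling and 2 with the replicate number as a block. The median of the group was 0.00 and that of all genes 0.07. Monocyte markers summed to 3019 to 3504 RPM in ko and 5601 to 6464 RPM in wt Ly6Cint libraries. For the progenitor list it was 953 to 998 RPM and 1646 to 2640 RPM, and for B cell markers 32.6 to 44.3 RPM and 17.3 to 18.2 RPM. Whether these differences bear on the result was not tested. The difference of the ko effect between Ly6Cint and Ly6C+ was called for 0 of the group and 0.00878% of all genes, with 2 of the group at an unadjusted p under 0.05 and 0 called by edgeR.

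The wt blood monocytes of 16 weeks allow the same comparison as the 7-week blood cells, with 2 libraries per group. Ly6C- against Ly6C+ gave 8 lower and 0 higher of 81, against 5.68% of all genes lower, 4.84% higher and 10.5% called, and the medians were -0.34 and 0.03. Ndufs8 was at 157 and 158 RPM in Ly6C+ and 88.3 and 99.0 RPM in Ly6C- cells (-0.74 ± 0.17, limma adjusted p = 0.0107). Cox4i1 was at 773 and 779 RPM and at 413 and 504 RPM (-0.77 ± 0.21, limma adjusted p = 0.0263). Cox6b2 was at 12.2 and 13.7 RPM and at 2.00 and 4.11 RPM (-1.83 ± 0.35, limma adjusted p = 0.00262). None of the 3 overlapped, as was the case for 54 of the 81 genes here. With 2 libraries per group this is weak evidence. It also held for 29 of the 81 genes in ko against wt Ly6C+ monocytes, where 0 were called. The share over all genes was not counted. The count was 1 or 2 when any 1 of the 4 libraries was left out, and 3 without the filter on low values. In wt Ly6Cint against Ly6C+ limma called 0 of the group and 4.29% of all genes, 2.1% higher and 2.2% lower, with 8 of the group at an unadjusted p under 0.05 and 0 called by edgeR. It called 4 without wt Ly6Cint replicate 2. In wt Ly6C- against Ly6Cint it called 0 and 0.448%, 0.0878% higher and 0.36% lower, with 5 at an unadjusted p under 0.05 and 0 called by edgeR.

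In the transfer experiment, marrow Ly6C+ monocytes were compared with the cells recovered from hosts, and all the comparisons with the cells before transfer share those 2 libraries. At 24 h, grafts in blood were lower in 16 of 80 genes and higher in 0, against 10.3% of all genes lower, 2.98% higher and 13.3% called. The medians were -0.55 and -0.53, and with quantile scaling -0.42 and 0.03. Grafts in spleen were lower in 4 genes and higher in 0, against 2.91% lower and 5.8% called (medians -0.50 and -0.21). At 48 h, grafts in blood were lower in 26 and higher in 0, against 12.8% lower and 17.2% called (medians -0.70 and -0.49). Grafts in spleen were lower in 20 and higher in 0, against 11% lower and 15% called (medians -0.59 and -0.45). The 48 h blood calls took in 13 of 37 complex I genes, 0 of 4 of complex II, 3 of 9 of complex III, 4 of 14 of complex IV and 6 of 14 of complex V.

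These counts lean on the libraries before transfer. Without replicate A or B of them, the counts were 4 and 6 for blood at 24 h, 0 and 1 for spleen at 24 h, 12 and 10 for blood at 48 h, and 7 and 9 for spleen at 48 h. Without graft replicate B they were 10 for blood at 24 h and 12 for spleen at 48 h, and without replicate C 0 for spleen at 24 h. Fewer genes were above 0 in the grafts, 8109 to 8278 in blood at 24 h, 7734 to 8761 in blood at 48 h and 8396 to 8614 in spleen at 48 h, against 11574 to 11719 before transfer. Erythroid markers summed to 942 to 7783 RPM in blood grafts and 13.6 to 24.98 RPM before transfer. The part of either in the results was not tested.

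Ndufa3, an accessory subunit of complex I, was at 254 and 266 RPM before transfer. In blood it was at 189 and 217 RPM at 24 h, 145 and 162 RPM at 36 h and 42.9 and 70.6 RPM at 48 h (-2.22 ± 0.29 at 48 h, limma adjusted p = 1.2e-05). In spleen it was at 112 and 131, 116 and 117, and 87.6 and 89.0 RPM at the same times. Each blood time point lay below the one before it, whereas in spleen the 24 h and 36 h libraries overlapped.

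Ndufa4 was at 110 and 124 RPM before transfer and at 17.1 and 21.0 RPM in spleen at 48 h (-2.56 ± 0.36, limma adjusted p = 3.5e-05). In blood it was at 24.5 and 40.3 RPM at 24 h, 72.8 and 102 RPM at 36 h and 23.2 and 26.3 RPM at 48 h, so its course had no single direction. Sdhb was at 415 and 431 RPM before transfer, 197 and 216 RPM in blood at 24 h, and 110 and 186 RPM in spleen at 48 h. Cox6b1, the widely expressed isoform of subunit 6b, was at 566 and 578 RPM before transfer, 210 and 252 RPM in blood at 48 h and 253 and 301 RPM in spleen at 48 h. Atp5b was at 662 and 729 RPM before transfer, 318 and 319 RPM in blood at 48 h and 308 and 454 RPM in spleen at 48 h. For all 3 genes every library named here lay below both libraries before transfer.

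Between 24 and 48 h, limma called 4 of the group lower and 0 higher in blood, against 3.67% of all genes lower and 8.09% called. The count was 10 without the 48 h replicate AC and 0 in a fit of the 2 groups alone. In spleen it called 1 lower, Ndufa4 (-2.14 ± 0.36), against 2.1% lower and 2.41% called. That count was 2, 3 or 4 without 24 h replicate B, 48 h replicate B or 48 h replicate C, and 0 in a fit of the 2 groups alone. Graft spleen against graft blood over the 3 times called 1, Ndufa10, a complex I subunit (0.79), against 2.89% higher and 3.78% called. Spleen graft 36 h replicate C had the highest sums of B cell (694 RPM) and platelet markers (1183 RPM) of all transfer libraries. Whether those cells bear on the call was not tested. Ndufa10 was at 18.0 and 42.9 RPM in blood at 48 h and 113 to 134 RPM in spleen at 24 and 48 h. Blood at 24 and 36 h and spleen at 36 h also enter the average and are not given here. The values given therefore do not show the size of the averaged difference (0.79). That count was 0 without either 36 h blood library, without 48 h blood replicate B or without 36 h spleen replicate B. It was 2 without 24 h blood replicate AC, 4 without 48 h blood replicate AC and 3 without 48 h spleen replicate B.

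**Figure D5:**
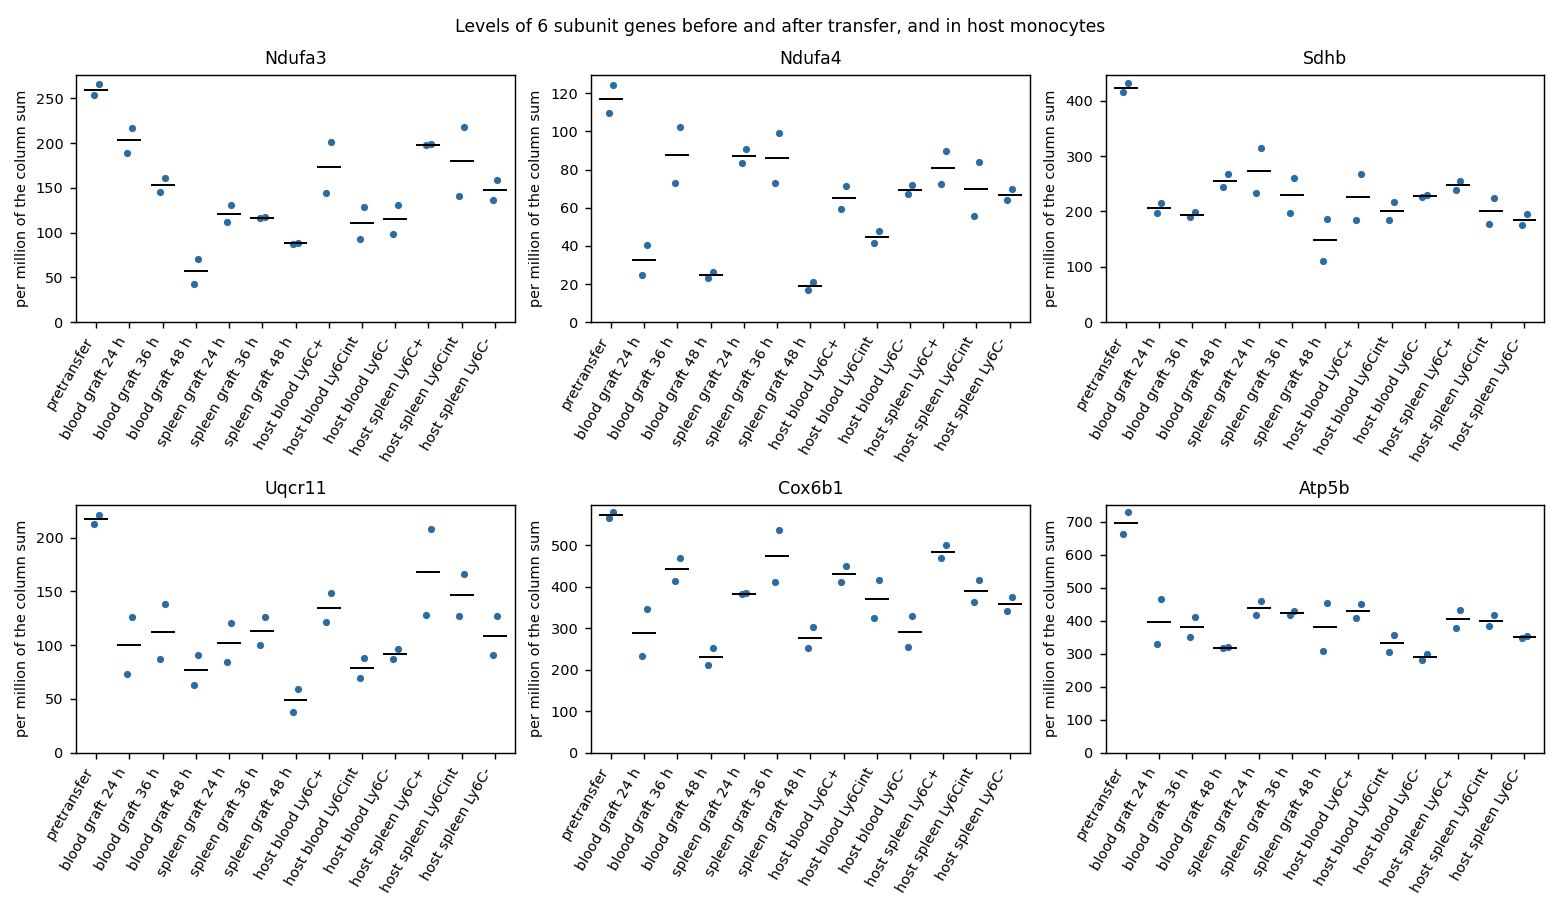
RPM of 6 subunit genes in the cells before transfer (pretransfer), in the grafts from blood and spleen at 24, 36 and 48 h and in host monocytes, 2 libraries per group (points), with group means as lines and linear axes from 0. Both libraries before transfer lie above all graft libraries for Ndufa3, Sdhb and Atp5b.

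In the hosts' own monocytes at 24 h, Ly6C- against Ly6C+ in blood gave 6 lower and 0 higher of 80, against 1.98% of all genes lower and 3.66% called (medians -0.51 and 0.00). Ndufb5, an accessory subunit of complex I, was at 236 and 282 RPM in Ly6C+, 123 and 131 RPM in Ly6Cint, and 99.9 and 127 RPM in Ly6C- cells (-1.19 ± 0.25 for Ly6C-). Both Ly6C+ libraries lay above the other 4. Cox4i1 was at 878 and 1239 RPM in Ly6C+ and 588 and 594 RPM in Ly6C- cells (-0.82 ± 0.22, limma adjusted p = 0.043). The count was 1 to 3 when any 1 of the 4 libraries was left out and 0 in a fit of the 2 groups alone. In spleen limma called 0 of the group and 2.77% of all genes for the same comparison, with 13 of the group at an unadjusted p under 0.05, although the median was -0.38 against 0.05. Whether spleen differed from blood in this was not tested.

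Ly6Cint against Ly6C+ gave 1 lower in host blood, Ndufb5 (-1.01), against 0.413% of all genes lower and 1.16% called, and 0 without any 1 of the 4 libraries. It gave 0 in host spleen against 0.562%, with 3 at an unadjusted p under 0.05. Ly6C- against Ly6Cint gave 0 in blood against 0.107% and 0 in spleen against 0.215%, with 8 and 4 at an unadjusted p under 0.05. Depth was unknown, so edgeR was not run on this table. Host spleen against host blood called 2 higher, against 0.479% higher and 0.852% called. These were Cox7a1, listed at 0 in all 6 blood libraries and at 1.31 to 3.94 RPM in spleen, and Atp5sl (0.84 ± 0.20). Over these host libraries, erythroid markers summed to 2117 to 5364 RPM in blood and 54.8 to 618 RPM in spleen. B cell markers summed to 35.9 to 91.6 RPM in blood and 69.7 to 268 RPM in spleen. Whether these cells bear on either call was not tested. Cox7a1 lies near the filter of 2 RPM and passed it mainly through the host spleen libraries, where it is high, so its call is a description and is not counted as support. The count was 2 without Ly6Cint replicate B of blood or of spleen and 0 or 1 without any other of the 12 libraries.

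How the authors divided reads between near-identical transcripts is not given in the sources used here. Of the 86 genes, 51 shared under 10% of their 36-base words with other listed transcripts and 35 shared more, up to 87.6% for Atp5g2. Of the genes under 10%, 46 were tested in the 7-week table. Among these, 22 were lower in marrow Ly6C+ against cMoP (22.4% of all genes), 29 in marrow Ly6C- against Ly6C+ (29.1% of all genes) and 14 in blood Ly6C- against Ly6C+ (10.5% of all genes). Atp5b (2.71%), Sdhc (1.44%), Cyc1 (0.741%), Sdha and Ndufs8 (both 0) are among them, while Atp5f1 (44.6%), Uqcr11 (17.3%) and Cox4i1 (13.9%) are not.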

How the data were processed

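Poly(A) RNA of sorted mouse cells was taken on oligo-dT beads, per the labels' protocols. The submitters' processing notes name bcl2fastq, HISAT 0.1.5, SAMtools, HOMER and the mm9 build. The 7-week table and the table with wt, ko and 8-week libraries hold signal, deposited by the authors as gene counts scaled per library. Their low values are whole multiples of a step, which gave back whole reads within 0.1 read, except that the check is uninformative for 1 blood Ly6Cint library. The total of 10000000 per library is an assumption. The transfer table holds a score, deposited by the authors as scaled and rounded values from which reads could not be recovered.

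Genes at 2 RPM or more in at least 3 (7-week) or 2 libraries were tested with limma 3.58.1 (trend) in R 4.3.3 on log2(RPM + 1). Each table was fitted with 1 mean per group and no block, and p-values were adjusted over all its genes (11373, 11388 and 12096). With 2 libraries in a group the fit borrows spread from the other groups. Fits were tested on simulated counts. Alternatives were another pseudocount (0.25), no filter, scaling to listed genes, quantile scaling, edgeR 4.0.16 (quasi-likelihood, TMM) on recovered reads, the replicate number as a block, the compared groups alone, and each library left out.

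The genes and lists were chosen with earlier results of these data known. In each comparison and complex the called gene with the smallest p in each direction could be named, together with a list of core subunits and isoforms. Promoter windows were matched by RefSeq transcript or symbol.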

Additional observations from a re-analysis of the deposited data

Results flagged for a closer look

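In the 7-week groups of 4 libraries, 212 sets of values were examined for 1 library standing apart, by the gap to its nearest neighbour over the range of the group, against Dixon's 95% critical value. 9 stood apart, where chance gives about 1 in 20. In MDP, replicate 1 was apart for Atp5g3, a rotor ring subunit of ATP synthase (1331 RPM against 921 to 971, ratio 0.878), Ndufb5 of complex I (209 RPM against 148 to 157, 0.853), Cox7b (188 RPM against 280 to 285, 0.95) and Uqcrb (39.6 RPM against 80.3 to 82.2, 0.956). The same numbered library of cMoP was low for Uqcrb (48.5 RPM against 93.1 to 101, 0.852) and Cox8a (400 RPM against 546 to 559, 0.919). MDP replicate 4 was low for Cox4i2, an isoform of subunit 4 (0.270 RPM against 2.32 to 2.57, 0.893). In marrow Ly6C- monocytes, replicate 4 was high for Cox6a1 (667 RPM against 486 to 488, 0.985) and replicate 3 for Cox6a2 (11.1 RPM against 0 to 0.653, 0.941).

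The log2 ratio of Ly6C- to Ly6C+ monocytes differed between marrow and blood, by limma, for 17 of the 81 genes, where 17.8% of all genes were called. The group's share lay near that of all genes, so the count does not set the group apart. Of the 17 genes, 5 stayed past the threshold in every alternative run. In the named genes, marrow minus blood was -1.43 for Atp5b, -1.46 for Cyc1, -1.14 for Sdha, -0.974 for Cox7b and -0.913 for Ndufv2, a core subunit of complex I. It was 0.78 for Ndufa6 and 0.729 for Cox7a2l.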

How the results depend on the processing

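0 of the called genes reversed direction under any alternative run. Of 292 gene calls, 286 stayed past the threshold with the pseudocount of 0.25, 271 without the filter, 238 with quantile scaling and 140 in fits of the compared groups alone, which have fewer libraries to estimate spread. Scaling to listed genes kept 181 of 211, edgeR 132 of 211, and the replicate block 212 of 225.

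Counts that moved by over 1.5 times were as follows. In fits of the compared groups alone they were 11 for 7-week cMoP against MDP, 4 for blood against marrow Ly6C+, 3 for Ly6Cint against Ly6C+, 0 for Ly6C- against Ly6Cint, 4 for blood Ly6C- against Ly6C+ and 7 for the marrow against blood difference. They were 0 for 8-week cMoP against MDP, 2 for 8-week Ly6C+ against cMoP and 0 for ko against wt Ly6Cint. In the transfer table they were 10 and 1 for blood and spleen at 24 h, 10 for spleen at 48 h, 0 for 48 h against 24 h in both tissues, 0 for graft spleen against blood, 4 for host spleen against blood, 0 for host blood Ly6Cint against Ly6C+, 0 for host blood Ly6C- against Ly6C+ and 1 for the same in spleen. edgeR called 21 for marrow Ly6C+ against cMoP, 14 for blood against marrow Ly6C+, 8 for blood Ly6Cint against Ly6C+ and 9 for the marrow against blood difference. Quantile scaling gave 9 for Ly6Cint against Ly6C+, 2 for Ly6C- against Ly6Cint, 0 for ko against wt Ly6Cint, 0 for host blood Ly6Cint against Ly6C+ and 1 for host spleen against blood. Scaling to listed genes gave 6 for Ly6C- against Ly6Cint. The pseudocount of 0.25 gave 1 for wt Ly6Cint against Ly6C+ and 2 for ko against wt Ly6Cint. Without the filter wt Ly6C- against Ly6C+ gave 3. Beyond the smaller fits, the cause was not tested.

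With each library left out in turn, counts in the 7-week table ran from 1 to 2 for cMoP against MDP, 24 to 32 for Ly6C+ against cMoP, 18 to 25 for blood against marrow Ly6C+, 12 to 25 for Ly6Cint against Ly6C+, 0 to 7 for Ly6C- against Ly6Cint, 21 to 34 for blood Ly6C- against Ly6C+, 46 to 56 for marrow Ly6C- against Ly6C+ and 11 to 22 for the difference between tissues. In the second table they ran from 1 to 3 (cMoP against MDP), 8 to 40 (Ly6C+ against cMoP), 0 to 4 (wt Ly6Cint against Ly6C+), 1 to 2 (wt Ly6C- against Ly6C+) and 0 to 2 (ko against wt Ly6Cint). In the transfer table they ran from 4 to 12 and 0 to 3 (blood and spleen at 24 h), 10 to 27 and 7 to 23 (at 48 h), 4 to 10 and 1 to 4 (48 h against 24 h), 0 to 2 (host spleen against blood), 0 to 4 (graft spleen against blood), 1 to 3 (host blood Ly6C- against Ly6C+) and 0 to 0 (host blood Ly6Cint against Ly6C+). A lone library is then assumed to vary like the other groups.

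Same-numbered libraries are tied to no animal or day by the labels, and in no 7-week comparison did every pair deviate together. Single pairs did. The correlation of their deviations from the group means was 0.385 for replicate 1 in cMoP against MDP, and -0.0424 to 0.156 for its other pairs. In blood Ly6C- against Ly6C+ it was 0.315, -0.0211 and 0.368 for replicates 3, 2 and 1. With the replicate number as a block, the count was 2 for ko against wt Ly6Cint and 1 for host spleen against blood, and the other counts stayed within 1.5 times. The block could not be fitted for the grafts against the cells before transfer or for graft spleen against blood, which share only replicate B.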
